A study of Drosophila melanogaster with 8 samples.

Results

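The RNA of seminal fluid proteins was followed in 2 tissues of the w1118 laboratory strain of Drosophila melanogaster. The genes are those whose symbol in the deposited tables begins with Acp (accessory gland protein) or Sfp (seminal fluid protein) followed by a digit. The cuticle genes Acp1 and Acp65Aa were left out. This name rule gave 44 of the 15146 genes, 17 with an Acp name and 27 with an Sfp name. The tables hold 4 groups of 2 libraries each, all from w1118. In the sperm table, spermatozoa came from adult males on food with 30 g/L sugar (medium) or 300 g/L sugar (high). In the embryo table, whole F1 embryos at stage 17, the end of embryonic development, were sired by males on food with 30 or 300 g/L sugar. Each gene has 1 deposited value per group in FPKM (a fragment count divided by transcript length in kilobases and scaled by the number of fragments sequenced), so the libraries of a group cannot be compared and no value below carries a spread.

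Male flies pass a mixture of small secreted proteins to the female with their sperm. Most are made in the accessory glands, a paired organ of the male reproductive tract, and are secreted into its lumen before mating. In the mated female they raise ovulation and egg laying, lower receptivity to further mating, and are needed for the storage and release of sperm. Classes among them include prohormone-like peptides, lectins, protease inhibitors and large glycoproteins. The Acp names come mostly from gene screens of the gland, and the Sfp names from proteins found in mated females.

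In the sperm table, 29 of the 44 genes were listed above 0 FPKM in at least 1 group, and 25 of these had the higher value in males on high sugar. The summed level of the 44 genes was 179 FPKM in the medium group and 402 FPKM in the high group, a ratio of 2.25. Of the 12 genes that the authors tested with Cuffdiff, 0 were called at an adjusted p under 0.05, where 0.341% of all 6453 tested sperm genes were called. At an unadjusted p under 0.05 the count was also 0, where 3.95% of tested genes passed. For sperm, a Benjamini-Hochberg adjustment over the tested genes gives larger values than the deposited column (0.0202 against 0.00749 at the smallest p), and 16 of the 22 sperm calls hold with the recomputed form. In embryos the same genes summed to 38.3 and 31.3 FPKM, 19 of the 44 were listed at 0 in both groups, and 0 of 6 tested genes were called, where 0.807% of 10163 tested genes were called. The tables were scaled separately, so levels set across them are approximate.

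The 44 genes share features that the name rule did not use. They lie on 2L (21 genes), 3L (9), 2R (8) and 3R (6), and 0 lie on X, which carries 15.4% of the genes of the table. The 2L share was 47.7% against 18.7% of all genes. They are short: the median exonic length of the 42 genes found by identifier in the newer BDGP6 annotation was 473.5 bases, from 168 to 2923, against 1584 bases for the 14278 genes of the table found there. Of the 44, 15 have a locus string that other genes also carry, and 12 of these overlap a gene of the table in BDGP6, 11 of them on the opposite strand. A shared locus string is not particular to the members, since 5679 of all 15146 genes have one. Values of overlapping genes are less certain. The library kit kept strand information, but no source used here states whether the authors' counting used it.

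Short genes reach a given FPKM with few fragments, and the sequencing depth is unknown. Among genes of 250 to 700 exonic bases with a locus of their own, the 10th percentile of the values above 0 was 1.10 FPKM in the medium and 1.12 FPKM in the high sperm group, against 0.157 and 0.162 FPKM in the embryo groups. A sperm value near 1 FPKM for such a gene therefore lies near the low end of the listed values above 0. Where a value of a few FPKM lies among such genes was not computed.

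The sperm comparison asks whether RNA in sperm differed with the males' own food. Among the seminal fluid genes most members had larger values on high sugar, but none of the differences passed the deposited test. Over all 44 genes, 25 were higher on high sugar, 4 were lower and 15 were listed at 0 in both groups. Over all genes of the table the counts were 5795 higher, 5759 lower and 3592 at 0 in both. Among the 12 tested members 10 were higher and 2 lower, with a median log2 ratio (FPKM plus 0.1) of 1.18. Over all tested genes 44.9% were higher, and the median was -0.05. The tested members were mostly the more abundant ones, so the 12 do not stand for the 44. Over all 44 the median log2 ratio was 0.63. Over the 25 with a mean of at least 1 FPKM it was 1.77, but 8 of these were under 1 FPKM on medium sugar and 2 on high sugar, so the filter itself favours members that differ. The median of the 9251 genes of the table at that mean was -0.03.

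**Figure D1:**
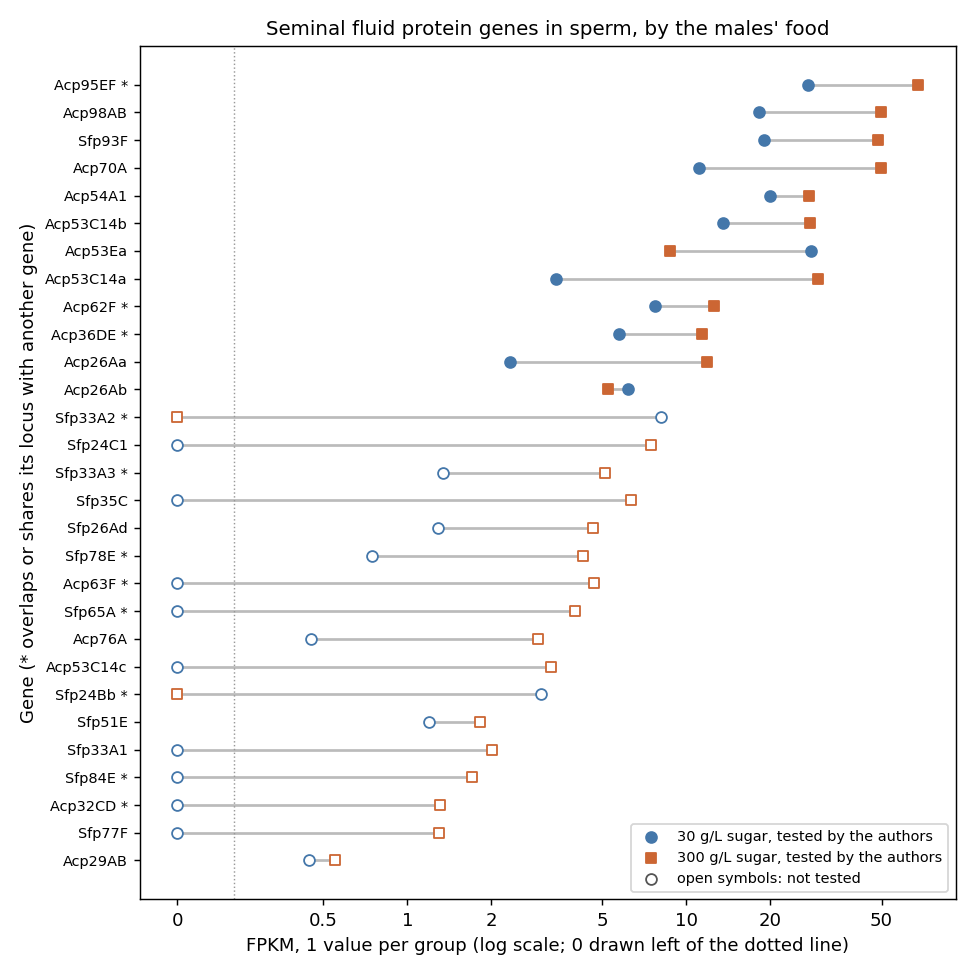
FPKM in sperm of males on 30 g/L (circles) and 300 g/L sugar (squares) for the 29 seminal fluid genes above 0 in either group, 1 value per group on a log scale, with filled symbols for genes the authors tested. The square lies to the right of the circle for 25 genes, and Acp53Ea, with 28.0 and 8.76 FPKM, is 1 of the 4 that lie the other way, beside Acp26Ab, Sfp33A2 and Sfp24Bb.

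Among the members with known effects on the mated female, the sex peptide gene Acp70A had 11.1 FPKM in the medium and 49.8 FPKM in the high sugar sperm group, a ratio of 4.49 (adjusted p = 0.996 in the authors' deposited table, unadjusted 0.223). Its peptide binds to stored sperm, raises egg laying and lowers receptivity. The locus lies at 3L 13294735 to 13295022 in the BDGP5 build of the tables. Its level ranked 3388 of all 15146 genes in the medium group and 932 in the high group. Acp26Aa, which encodes ovulin, a prohormone-like protein that raises ovulation, had 2.34 and 11.9 FPKM, a ratio of 5.07. Its unadjusted p, 0.0909 in the authors' deposited table, was the smallest of the members. Its neighbour Acp26Ab, which encodes a short peptide, had 6.18 and 5.24 FPKM (unadjusted p = 0.712 in the authors' deposited table, the largest of the members). The listed values of the adjacent pair (2L 5892883 to 5893896 and 5892298 to 5892862) thus differed in direction, but neither difference was called.

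Acp36DE encodes a large glycoprotein that associates with sperm and is needed for sperm storage. It had 5.75 FPKM on medium and 11.4 FPKM on high sugar, a ratio of 1.98 (unadjusted p = 0.466 in the authors' deposited table). Acp62F, a trypsin inhibitor that reaches the sperm storage organs, had 7.74 and 12.6 FPKM, a ratio of 1.62. Both lie inside another gene on the opposite strand, and those genes had lower values on high sugar, with 0 of the 2 called: Fas3 around Acp36DE had 31.0 and 23.6 FPKM, and Mrtf around Acp62F had 6.36 and 6.01 FPKM. The lectin Acp29AB, which bears on sperm storage, was low in both groups with 0.444 and 0.549 FPKM and was not tested.

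The member with the highest mean over both groups was Acp95EF, with 27.2 FPKM on medium and 67.8 FPKM on high sugar. Its ratio was 2.50 (unadjusted p = 0.607 in the authors' deposited table). It lies inside Spase22-23, a signal peptidase subunit gene on the opposite strand with 111 and 96.5 FPKM, and the exons of both overlap. Acp98AB had 18.2 and 49.9 FPKM, a ratio of 2.74, and Sfp93F, the single tested gene with an Sfp name, had 19.0 and 48.5 FPKM, a ratio of 2.56. Acp54A1 had 19.9 and 27.5 FPKM, a ratio of 1.38, the smallest among the tested members with a higher value on high sugar. Acp98AB, Sfp93F and Acp54A1 have a locus of their own, and their unadjusted p-values in the authors' deposited table were 0.558, 0.195 and 0.699. Acp98AB was not found in the newer BDGP6 annotation, so its overlap with other genes could not be checked there. The highest of these levels, 67.8 FPKM, ranked 694 in the high sugar group.

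A cluster of 5 members, Sfp53D, Acp53C14a, Acp53C14b, Acp53Ea and Acp53C14c, lies within 6.92 kb on 2R (12632055 to 12638974), and none overlaps another gene. Its members did not share a direction. Acp53C14a had 3.42 FPKM on medium and 29.7 FPKM on high sugar, a ratio of 8.68, the largest among members above 0 in both groups (unadjusted p = 0.095 in the authors' deposited table). Acp53C14b had 13.5 and 27.8 FPKM, a ratio of 2.06, and Acp53C14c was listed at 0 and 3.26 FPKM. Acp53Ea had the reverse order, with 28.0 and 8.76 FPKM, a level 3.20 times as high on medium sugar (unadjusted p = 0.165 in the authors' deposited table). Sfp53D was listed at 0 in both groups. Summed over the cluster the level was 44.9 FPKM on medium and 69.5 FPKM on high sugar. Acp53Ea was thus the most abundant member of all in the medium group and the 11th in the high group.

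**Figure D2:**
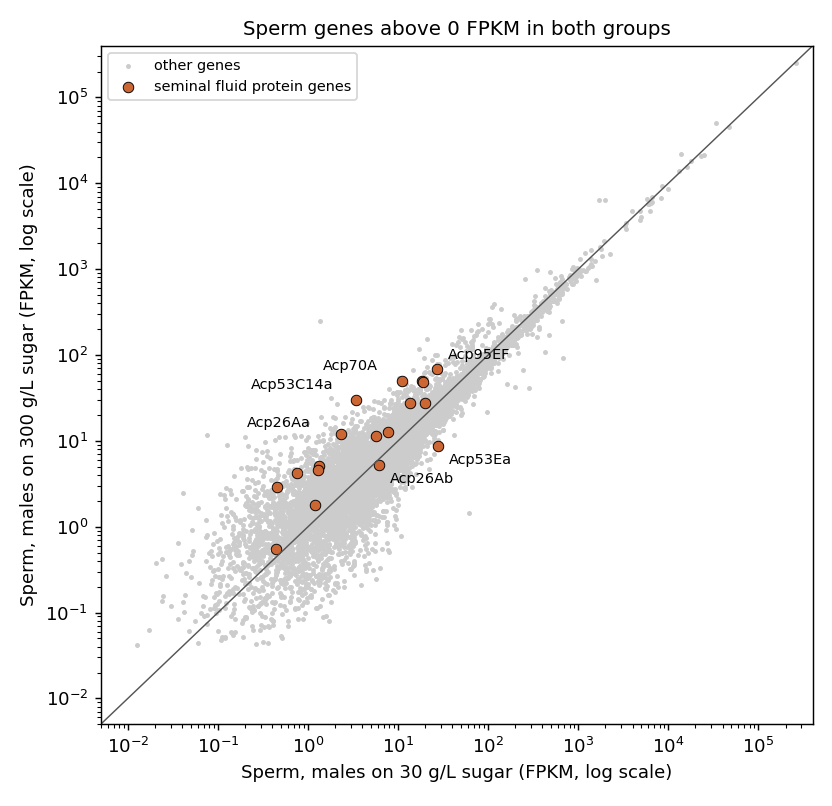
FPKM of each gene in sperm of males on 30 g/L (x axis) against 300 g/L sugar (y axis), both on log scales, for the 9946 genes above 0 in both groups, with the diagonal drawn. Of the 18 seminal fluid genes in the plot 16 lie above the diagonal, and Acp53Ea and Acp26Ab lie below it.

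The other 32 members were not tested in sperm, and none of their values exceeded 8.14 FPKM. Of these, 15 were listed at 0 in both groups, 14 of them with an Sfp name. Acp24A4, of the Kunitz type of protease inhibitors, was the single Acp gene among them. In all, 9 members were listed at 0 on medium sugar and between 1.29 and 7.49 FPKM on high sugar, with Sfp24C1 (7.49 FPKM), Sfp35C (6.35 FPKM) and Acp63F (4.67 FPKM) at the top. The others were Sfp65A (4.0 FPKM), Acp53C14c (3.26 FPKM), Sfp33A1 (2.01 FPKM), Sfp84E (1.70 FPKM), Acp32CD (1.31 FPKM) and Sfp77F (1.29 FPKM). The reverse held for Sfp33A2 (8.14 FPKM on medium sugar) and Sfp24Bb (3.01 FPKM). That is 20.5% and 4.55% of the members, while 7.23% and 3.39% of all genes of the table were listed at 0 in the medium or the high group alone. Sfp33A2 and Sfp24Bb share their locus with other genes, and so do Acp63F, Sfp65A, Sfp84E and Acp32CD, which were higher on high sugar. No ratio is given against a value of 0. Among untested members above 0 in both groups, Acp76A, a serpin (a family of protease inhibitors), had 0.451 and 2.93 FPKM, Sfp78E 0.749 and 4.27 FPKM, Sfp33A3 1.34 and 5.12 FPKM, Sfp26Ad 1.29 and 4.63 FPKM and Sfp51E 1.20 and 1.81 FPKM. All 5 were higher on high sugar, and of them Sfp78E and Sfp33A3 share their locus with other genes. Among all untested genes above 0 in either group, 56.8% were higher on high sugar, against 15 of 17 of the members.

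Over the 29 members with a locus of their own, the sum was 125 FPKM on medium and 289 FPKM on high sugar, a ratio of 2.31, and 16 were higher and 2 lower. Summed FPKM of the 44 genes made up 0.0213% of all FPKM in the medium and 0.0466% in the high group.

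Other genes of the male tract and genes of the sex peptide network, not all of which act in the male, gave a mixed picture. Of 20 further genes for accessory gland secretions 9 were tested and 0 called; 7 of the 9 were higher on high sugar. Their sum was 274 and 491 FPKM, a ratio of 1.79. The most abundant of them were the odorant-binding protein gene Obp51a, with 128 and 152 FPKM, and Mst57Db, with 58.9 and 128 FPKM. Of 12 genes of the sex peptide network, whose products bind the sex peptide to sperm or act in its response, 2 were tested and 0 called. Both tested genes were lower on high sugar: CG5630, now named hdly, with 85.7 and 72.4 FPKM, and lectin-46Cb with 5.71 and 2.71 FPKM. They do not stand for the list, whose median was 0.514 FPKM on medium and 0.939 FPKM on high sugar. The receptor of the sex peptide, SPR, had 0.428 and 0.879 FPKM. Of a list of 10 regulators and other genes of the male tract 5 were tested and 0 called. Among them prd, which the gland needs to form, had 0.219 and 1.58 FPKM, Abd-B, which acts in its secondary cells, had 40.7 and 36.8 FPKM, and the fatty acid elongase gene bond had 58.0 and 56.7 FPKM.

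Lists of genes of other cell types were compared in the same groups, where 0.341% of all tested sperm genes were called. Of 28 spermatid and sperm genes, 27 were at a mean of 1 FPKM or more in sperm and 25 were tested. Among the 25, 24 were higher on high sugar and 1 was lower. For 14 of the 25 the authors' unadjusted p was under 0.05. Called higher were 3 (S-Lap1, S-Lap7 and loopin-1), and 0 were called lower. These 3 had adjusted p = 0.00749 each in the authors' deposited table and 0.0202 when recomputed over tested genes. The 28 genes summed to 954 FPKM on medium and 2151 FPKM on high sugar, a ratio of 2.25. The seminal fluid genes therefore equalled 18.7% of the sum of the spermatid list in both groups. Of 11 genes of the ejaculatory duct and bulb, 7 were tested and 1 was called, Dup99B, a peptide related to the sex peptide, with 254 and 778 FPKM. Its adjusted p was 0.0314 in the authors' deposited table and 0.0849 when recomputed, so the call is lost with the recomputed form. Without CG18628, a single transcript of very high level, the sum of the other 10 was 698 and 1437 FPKM, a ratio of 2.06. Dup99B was the largest value in that sum in both groups, so the ratio does not stand for each gene. Among the 7 tested, 5 were higher on high sugar and 2 lower, namely CG18628 and PebIII (248 and 207 FPKM). Muscle genes summed to 3780 and 3608 FPKM with 0 of 12 tested called, so the seminal fluid genes equalled 4.73% of the muscle sum on medium and 11.1% on high sugar. Of 12 fat body genes 3 were tested and Tsf1 fell (adjusted p = 0.00749 in the authors' deposited table, 0.0202 recomputed). The sum was 506 and 185 FPKM with Tsf1 and 77.0 and 77.7 FPKM without it. Of 8 genes on a female list 0 reached a mean of 1 FPKM and 6 were listed at 0 in both groups. Besides CG17012 that list holds yolk protein and eggshell genes, so it does not stand for the female tract as a whole. More cells of a type in the preparation and more RNA per cell cannot be told apart in these pools. The part of these cell types in the values of the seminal fluid genes was not tested.

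**Figure D3:**
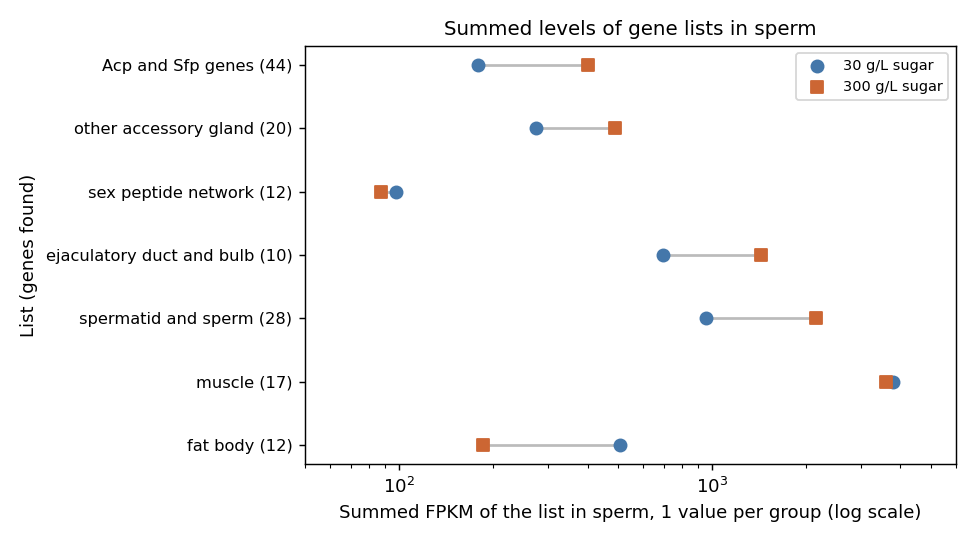
Summed FPKM in sperm of males on 30 g/L (circles) and 300 g/L sugar (squares) for the 44 seminal fluid genes and 6 other lists, 1 value per group on a log scale, with the genes found in parentheses and CG18628 left out of the ejaculatory list. The sum of the seminal fluid genes was 2.25 times as high on high sugar, that of the spermatid list also 2.25 times, and the muscle list had 3780 and 3608 FPKM.

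The embryo comparison asks whether the fathers' food was accompanied by differences in RNA of the offspring. Most seminal fluid genes were at or near 0 in embryos. Of the 44 genes, 25 were above 0 in at least 1 group, 17 of these stayed under 1 FPKM in both, and 8 reached 1 FPKM in at least 1 group. The authors tested 6, with unadjusted p-values from 0.39 to 0.965 and an adjusted p of 0.999 for each in their deposited table, so at an unadjusted p under 0.05 the count was also 0, where 3.34% of all tested genes passed. Over the 44 genes, 8 had the higher value on high paternal sugar, 17 the lower and 19 at 0 in both groups. Over all genes of the embryo table these counts were 5979, 7280 and 1887.

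The highest embryo values belonged to members that share a locus with another gene. Of the 15 members that share a locus string 14 were above 0 in at least 1 group, against 11 of the 29 with a locus of their own. Of the 8 that reached 1 FPKM, 6 share a locus. The highest was Acp36DE, with 13.3 FPKM in embryos of medium sugar fathers and 12.1 FPKM in those of high sugar fathers. It lies on the opposite strand inside Fas3, a cell adhesion gene with 168 and 161 FPKM in embryos, without overlap of their exons. Sfp65A had 6.68 and 5.37 FPKM and lies inside CG13300, with 8.17 and 6.89 FPKM. Acp62F had 5.18 and 2.73 FPKM and lies inside Mrtf, a transcription cofactor gene with 5.06 and 4.75 FPKM. Acp95EF had 3.37 and 3.03 FPKM inside Spase22-23, with 171 and 166 FPKM. Both other genes of this set were not tested, Sfp33A2 with 0.247 and 1.59 FPKM and Sfp24Bb with 0.34 and 1.28 FPKM. Whether fragments of the surrounding genes entered these values was not tested.

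The members with a locus of their own reached at most 2.29 FPKM in embryos. That was Sfp70A4, with 2.29 FPKM in the medium and 0 in the high sugar group, and it was not tested. Acp53C14c had 1.35 and 0.82 FPKM (unadjusted p = 0.462 in the authors' deposited table). Sfp78E, which overlaps CG11248, had 0.914 and 0.943 FPKM and was the single tested member with a higher value on high sugar. Acp70A, Acp26Aa, Acp26Ab, Acp98AB, Acp54A1 and Sfp93F, all among the 12 tested in sperm, were listed at 0 in both embryo groups. Acp36DE, Acp62F and Acp95EF were tested in both tables. Each had the higher value on high sugar in sperm and on medium sugar in embryos, and none was called in either table; the difference between the tables was not tested. Of the 8 other lists, 7 had 0 calls in embryos, and on the female list the eggshell gene Cp15 fell. The spermatid list had 6 of 28 genes with a mean of at least 1 FPKM in embryos.

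**Figure D4:**
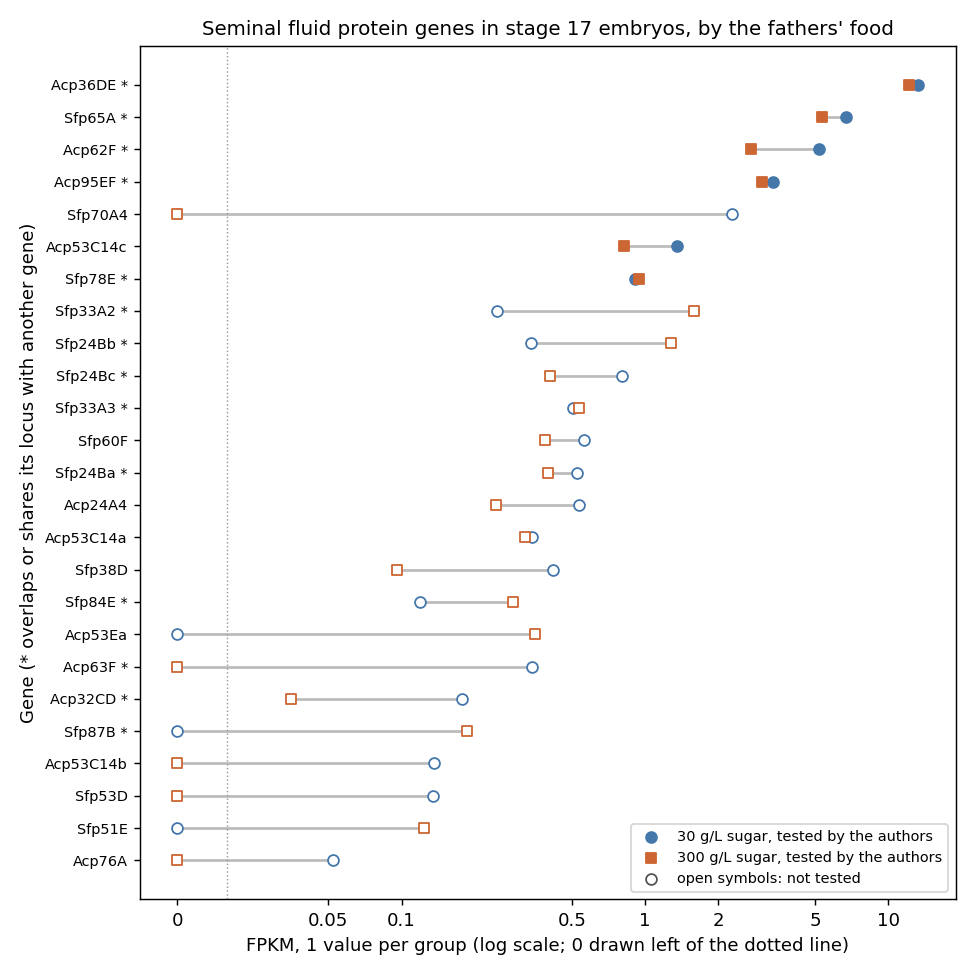
FPKM in stage 17 embryos of fathers on 30 g/L (circles) and 300 g/L sugar (squares) for the 25 seminal fluid genes above 0 in either group, 1 value per group on a log scale, with filled symbols for tested genes and an asterisk for genes that overlap or share a locus with another gene. The 4 uppermost genes all carry the asterisk, and the highest, Acp36DE, had 13.3 and 12.1 FPKM.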

How the data were processed

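Per the labels' protocols, Trizol-extracted total RNA was freed of ribosomal RNA before stranded library preparation. The submitters' processing notes name TopHat2 2.0.8 and Cuffdiff 2.1.1, with BDGP5 as the build; no source used here gives the annotation, the options or the scaling between groups. The authors deposited 1 table per tissue with the same column headers, and the tissue is known from the table's name. Per the file headers, the values are FPKM, 1 per group, so each holds the 2 libraries of a group together. P-values and their Benjamini-Hochberg adjusted forms in the deposited tables are the authors' own test for each gene. Nothing says whether the libraries came from separate cultures, so those p-values may measure a technical spread.

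From these values, members were found by name, and log2 ratios were computed with a pseudocount of 0.1 FPKM, which understates the change of low genes. Genes were called at an adjusted p under 0.05 among those the authors tested. The adjustment was also recomputed over tested genes, which gave back the embryo column but larger values than the deposited sperm column for a reason no source used here gives, and checked on simulated data (Python 3.11.15, pandas 2.3.3). No model was refitted. Starts count from 0 in the tables, and 1 was added; strings shared between genes are not printed. Overlaps, lengths and strands were taken from BDGP6 within that build, where 42 of the 44 identifiers were found. The members and the lists of other genes were chosen with earlier results of these data known. Named were all tested members, those at 1 FPKM or more, and of each list the genes called and the 2 most abundant in sperm, of which a part is printed; prd, Abd-B, SPR, Acp29AB, Acp24A4, Sfp53D and the genes around members were named on other grounds, some after their values were seen. The ejaculatory list also held CG17012, which is on the female list too. Yp1, Yp2 and Yp3 are on both the fat body and the female list. No sequences are shown, and the number of unused columns of values per sample was 0.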

Additional observations from a re-analysis of the deposited data

How the results depend on the processing

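The count of 0 called members stayed 0 in both tables at adjusted p thresholds of 0.01 and 0.1, with the adjustment recomputed over tested genes, with a minimum absolute log2 ratio of 1 and at an unadjusted p under 0.05. In the authors' deposited test the adjusted p of tested members was 0.996 in sperm and 0.999 in embryos. The other adjusted thresholds and the log2 minimum therefore could not change the count. The median log2 ratio of members kept its sign in both tables except over all 44 embryo members, where it was 0. In sperm it was 1.77, and came to 1.39 with a pseudocount of 1, 1.18 over members at 5 FPKM or more, 1.96 without overlapping loci, 1.32 without loci under 500 bases, 1.38 for Acp names alone and 0.63 over all 44 members. In embryos it was -0.49 over 6 members, and came to -0.32 with a pseudocount of 1 and -0.32 over members at 0.1 FPKM or more. It was -0.22 at 5 FPKM or more and -0.64 when rescaled without CG18628, which itself had 5.26 and 2.03 FPKM in embryos. It came to -2.62 without overlapping loci, -0.31 without loci under 500 bases and -2.44 for Sfp names alone. The -2.62 is over Acp53C14c and Sfp70A4 alone, and the -2.44 over Sfp65A and Sfp70A4 alone. Sfp70A4 was untested, with 2.29 FPKM in the medium and 0 in the high group. Members at a mean of 1 FPKM numbered 25 in sperm, 12 at 5 FPKM and 16 without overlapping loci; in embryos they numbered 6, 20 at 0.1 FPKM, 2 at 5 FPKM and 2 without overlapping loci. The medians over all 44 and the counts without overlapping loci were added after seeing the data. Fewer members entered under the stricter filters; for the other shifts the cause was not tested. No paired analysis was possible because each table holds 1 value per group, and for the same reason no replicate could be left out. The unknown depth limits all values near 0.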

Other observations

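CG42463, which the newer BDGP6 annotation names Sfp24Bd, fell outside the name rule. It was listed at 0 in both sperm groups, had 0.962 and 0.422 FPKM in embryos of medium and high sugar fathers, was tested in neither table and shares its locus string with 4 other genes.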
